A study of Mus musculus with 12 samples.

Results

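The 9 genes described here encode enzymes that turn arachidonic acid into prostaglandins and leukotrienes, a membrane partner of one of them, and 2 receptors for prostaglandin E2. They were taken by gene symbol from a list that held the cyclooxygenases *Ptgs1* and *Ptgs2*, the prostaglandin synthases *Ptges* and *Hpgds*, the receptors *Ptger2* and *Ptger4*, and *Alox5*, *Alox5ap* and *Ltc4s* of the leukotriene branch. All 9 were present among the 26699 genes of the count files, and all 9 were among the 11927 that passed the filter on low counts. Whole synovium, the soft tissue that lines the joint, had been dissected from adult wild-type C57BL/6 mice and kept ex vivo for 4 h with 100 nM calcitonin gene-related peptide (CGRP), a neuropeptide released by pain-sensing nerve fibres, or under the control condition. After digestion with collagenase, 2 macrophage populations were sorted from each treatment, MHCII+CD11c- (called IAIE in the labels) and CD11c+MHCII+, and each of the 4 groups held 3 bulk RNA-seq libraries. All cells therefore came from explanted, enzyme-digested tissue, CGRP was given to the whole explant and not to sorted cells, and freshly isolated cells were not among the groups. The labels number the libraries 1 to 3 within a group but do not say whether each came from its own mouse, so the p-values measure the spread between these libraries.

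Eicosanoid synthesis starts when a phospholipase frees arachidonic acid from membranes. The cyclooxygenases COX-1 (*Ptgs1*, present in many resting cells) and COX-2 (*Ptgs2*, inducible) convert it into prostaglandin H2, from which terminal synthases make the individual prostanoids. In the other branch, 5-lipoxygenase (*Alox5*) acts with the help of its membrane partner FLAP (*Alox5ap*) to make leukotriene A4, and leukotriene C4 synthase (*Ltc4s*) joins it to glutathione. Prostaglandin E2 made in inflamed joints is known for sensitising pain fibres, and macrophages both make it and respond to it through the cAMP-coupled receptors EP2 (*Ptger2*) and EP4 (*Ptger4*).

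Library totals ranged from 2127191 to 5649698 assigned counts, so that 3 counts corresponded to between 0.531 and 1.33 CPM (counts scaled to library size, with the library total corrected by TMM factors). Spearman's rho between libraries of 1 group lay between 0.934 and 0.968 across the tested genes. The sort was visible in *Itgax*, which encodes CD11c, at 236 ± 28.7 CPM (SD, n = 3) in CD11c+MHCII+ controls and 6.15 ± 4.73 CPM (n = 3) in MHCII+CD11c- controls, and *H2-Ab1*, an MHC class II chain, lay between 2074 CPM in the lowest and 11548 CPM in the highest library. With CGRP *Itgax* averaged 115 CPM in CD11c+MHCII+ cells and 5.35 CPM in MHCII+CD11c- cells. *H2-Ab1* averaged 10546 CPM in CD11c+MHCII+ controls and 6659 CPM with CGRP, and 3869 and 2321 CPM in MHCII+CD11c- cells. In CD11c+MHCII+ cells all CGRP libraries lay below all controls for both genes, and in MHCII+CD11c- cells for *H2-Ab1*. The part of this shift in the comparisons was not tested. Both populations expressed macrophage genes, but the summed level of 9 macrophage markers was 5921 to 7810 CPM in MHCII+CD11c- controls and 2451 to 2953 CPM in CD11c+MHCII+ controls, and the sum of 9 dendritic cell markers was 229 to 316 CPM and 938 to 975 CPM, so the CD11c+MHCII+ cells also carried dendritic cell transcripts. Fibroblast markers were uneven, reaching 1374 CPM in MHCII+CD11c- control library 2 and 1563 CPM in MHCII+CD11c- CGRP library 1 against 24.4 CPM in the lowest library.

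*Ptgs2* was the most abundant of the 9 transcripts by a wide margin. Divided by exon length (RPKM, the CPM divided by the exon length in kilobases), its mean level ran from 125 RPKM in MHCII+CD11c- controls to 653 RPKM in CD11c+MHCII+ cells with CGRP, and by mean CPM it was the 28th most abundant of all tested genes in the latter group. *Alox5ap* came next in every group, between 73.7 and 106 RPKM, and no other member exceeded 25.8 RPKM on average. In MHCII+CD11c- controls *Alox5* (25.8 ± 11.1 RPKM), *Hpgds* (16.4 ± 3.65 RPKM) and *Ltc4s* (13.6 ± 2.28 RPKM) followed, and the ranges of these 3 neighbours overlapped (n = 3 each). In CD11c+MHCII+ controls *Ptger4* (12.1 ± 0.987 RPKM) and *Alox5* (11.7 ± 2.43 RPKM) stood next to each other with overlapping ranges, while *Ptges*, at 0.285 ± 0.251 RPKM, was the lowest member (n = 3 each). *Ptgs1* was scarce throughout, with 4 to 28 counts per library. The 2 cyclooxygenases were therefore far apart: per length, the *Ptgs2* level was 60.9 to 81.0 times the *Ptgs1* level in the MHCII+CD11c- control libraries, and 195 to 245 times in the CD11c+MHCII+ control libraries.

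**Figure D1:**
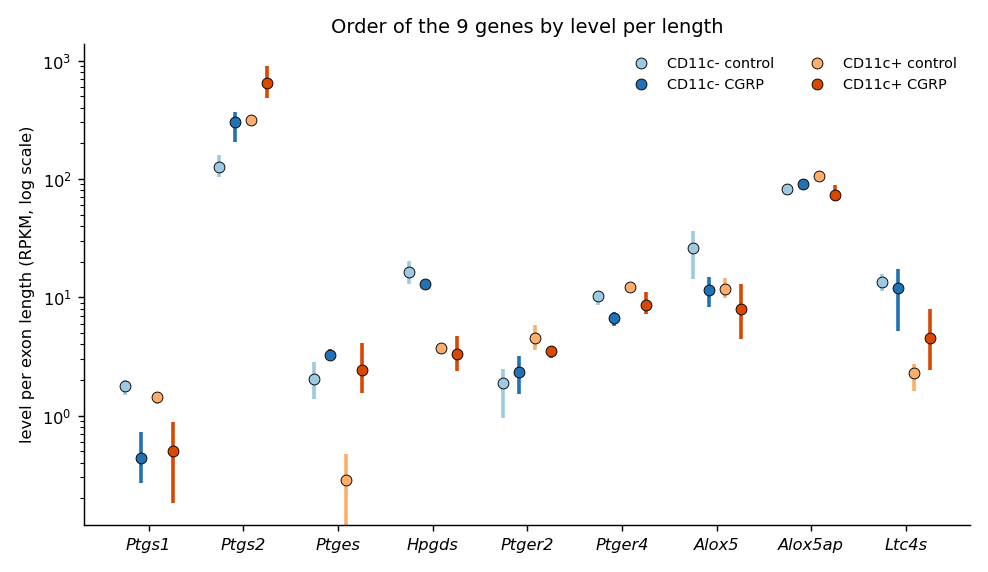
Level per exon length (RPKM, log scale) of the 9 genes in each of the 4 groups; points are means of 3 libraries and lines run from the lowest to the highest library. *Ptgs2* lies above all others in every group and *Alox5ap* second; the line for *Ptges* in CD11c+ controls leaves the axis because 1 library had 0 counts.

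CGRP raised *Ptgs2* in both populations and *Ptges* in CD11c+MHCII+ cells, and 1 or 2 members fell in each population. In MHCII+CD11c- cells 3 of the 9 members passed an adjusted p of 0.05 in edgeR's quasi-likelihood test with Benjamini-Hochberg adjustment over all tested genes, with *Ptgs2* higher and *Ptger4* and *Alox5* lower, where 9.21% of all tested genes passed. In CD11c+MHCII+ cells 3 of 9 passed, with *Ptgs2* and *Ptges* higher and *Alox5ap* lower, against 10.9% of all tested genes. The median log2 fold change over the members was -0.20 and -0.37, and over all tested genes -0.02 and 0.0016, respectively. These shares rest on 9 genes, and the list was not chosen independently of earlier results of these data. In sorted bulk samples, fewer cells of a type and less RNA per cell cannot be told apart.

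*Ptgs2*, on chromosome 1 (150100031 to 150108227, plus strand, mm10), changed in the same direction in both populations. In MHCII+CD11c- cells it stood at 474, 735 and 511 CPM in the control libraries and at 942, 1557 and 1679 CPM with CGRP. All 3 CGRP libraries lay above all 3 controls. The log2 fold change was 1.28 ± 0.22 (SE, n = 3 per group, adjusted p = 8.65e-04), or 2.42-fold. In CD11c+MHCII+ cells the levels were 1404, 1535 and 1377 CPM in controls and 2193, 4134 and 2639 CPM with CGRP. Again the groups did not overlap, and the controls of this population lay within the range of the CGRP-treated libraries of the other. The log2 fold change was 1.05 ± 0.22 (n = 3 per group, adjusted p = 0.0031), or 2.08-fold, and this call held in all 12 fits that left out 1 library.

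The window around the *Ptgs2* start is shown because this is the member that rose in both populations. Promoter windows of 250 bases before and 50 bases after the start (RefSeq, GRCm38.p6, the build of mm10) were at hand for 8 of the 9 members, *Alox5ap* being the other. They were searched on both strands for a cAMP response element (CRE, TGACGTCA), its half-site (TGACG, contained in the full CRE), an E-box (CACGTG), a C/EBP palindrome (TTGCGCAA), an AP-1 site (TGA and TCA around any 1 base), a TATA box (TATAAA) and a kB-like site (GGG and CC around any 5 bases), motifs picked after the sequences had been seen. The 250 bases before the start, chr1:150099781-150100030 on the plus strand, carry a C/EBP palindrome and a kB-like site, both in capitals.
Ptgs2: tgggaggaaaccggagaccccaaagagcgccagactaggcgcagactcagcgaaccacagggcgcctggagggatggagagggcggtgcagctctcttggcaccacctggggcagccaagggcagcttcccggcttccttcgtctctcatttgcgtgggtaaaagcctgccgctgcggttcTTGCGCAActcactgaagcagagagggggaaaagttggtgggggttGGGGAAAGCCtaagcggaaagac
Of the 32851 promoter windows, 0.183% hold TTGCGCAA and 50.8% hold the kB-like letters. Downstream of the annotated start, chr1:150100034-150100057 holds a CRE half-site on the minus strand (bases 14 to 18 after the start), overlapping an E-box (bases 17 to 22), together in capitals.
Ptgs2 after the start: gtcaccactaCGTCACGTGgagtc
Half-sites occur in 20.8% and this E-box in 7.15% of all windows. *Ptgs2* was the only one of the 8 members with a half-site, an E-box or a C/EBP palindrome, and none of the 8 held the full CRE, the AP-1 site or the TATAAA letters. These matches are descriptions of letters and not of bound factors.

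*Ptges* encodes the inducible, membrane-bound prostaglandin E synthase that couples to COX-2. It lies on chromosome 2 (30889471 to 30929863, minus strand). In CD11c+MHCII+ controls it was close to absent, with 0, 8 and 7 counts (0, 1.86 and 1.495 CPM), and with CGRP it had 85, 25 and 35 counts (16.2, 6.16 and 6.20 CPM). Every CGRP library was above every control. The log2 fold change was 2.91 ± 0.60 (n = 3 per group, adjusted p = 0.00265), the largest change with CGRP of any member in either population. CGRP library 1 stood well above the other 2, and without it the change was 2.25 with an adjusted p of 0.0253. In MHCII+CD11c- cells *Ptges* was already present in controls, at 7.70, 5.41 and 11.1 CPM, and measured 11.6, 12.3 and 14.4 CPM with CGRP. These groups did not overlap either, but the log2 difference of 0.68 did not pass the threshold (95% interval -0.37 to 1.73, adjusted p = 0.48).

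Some markers of other cells also rose with CGRP in the CD11c+MHCII+ libraries. All 6 tested mural cell markers (of 7 listed) also rose with CGRP there, their summed level going from 25.6 to 32.5 CPM in controls to 364, 55.9 and 192 CPM, and *Des* and *Tagln* were at 0 in the controls. Of 8 fibroblast markers 6 were tested and 2 rose, and the sum went from 24.4 to 35.5 CPM to 357, 386 and 74.5 CPM. Among these CGRP libraries *Ptges* was highest in library 1 (16.2 CPM), which also had the highest mural sum. It was lowest in library 2 (6.16 CPM), which had the highest fibroblast sum and the lowest mural sum. In MHCII+CD11c- cells 3 of the 6 tested fibroblast markers, the collagen genes *Col1a1*, *Col1a2* and *Col3a1*, fell with CGRP and none rose, with sums of 168 to 1374 CPM in controls and 52.0 to 1563 CPM with CGRP, the highest being library 1, where *Prg4* alone reached 1427 CPM. In MHCII+CD11c- cells *Ptges* was the lowest of its group in CGRP library 1 (11.6 CPM). The same held for control library 2 (5.41 CPM), which had the highest fibroblast sum of the controls. The part of mural cells and fibroblasts in the *Ptges* values was not tested in either population.

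The 250 bases before the RefSeq start of *Ptges*, chr2:30903298-30903547 on the minus strand, are shown beside those of *Ptgs2* because the products of the pair act in sequence. They lie inside the GENCODE M21 span of the gene (30889471 to 30929863), so the annotations place the start differently. Only the kB-like site, in capitals, was found.
Ptges: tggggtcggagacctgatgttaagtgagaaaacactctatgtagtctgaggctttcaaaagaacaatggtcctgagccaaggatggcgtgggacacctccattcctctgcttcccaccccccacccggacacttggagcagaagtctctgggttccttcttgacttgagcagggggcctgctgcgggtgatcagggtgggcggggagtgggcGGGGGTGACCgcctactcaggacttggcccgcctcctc
The E-box, C/EBP palindrome and half-site seen at *Ptgs2* were not in this window, nor in the 50 bases after the start.

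*Ptgs1*, on chromosome 2 (36230426 to 36252272, plus strand), measured lower with CGRP in both populations without passing the threshold. Its counts in MHCII+CD11c- cells were 19, 27 and 16 in controls (5.85, 7.69 and 7.12 CPM) and 4, 5 and 15 with CGRP (1.05, 1.21 and 2.81 CPM). The CD11c+MHCII+ cells had 12, 25 and 28 in controls (4.87, 5.82 and 5.98 CPM) and 18, 7 and 4 with CGRP (3.43, 1.72 and 0.708 CPM). In neither population did the groups overlap. The log2 differences were -1.97 ± 0.62 (adjusted p = 0.0512) and -1.50 ± 0.60 (adjusted p = 0.132), n = 3 per group. The first lies at the threshold and falls on its other side with other scalings (adjusted p = 0.0495 with RLE and 0.0447 with upper-quartile factors) and without MHCII+CD11c- CGRP library 3 (0.0428), CD11c+MHCII+ CGRP library 1 (0.0486) or CD11c+MHCII+ CGRP library 3 (0.0417). Per length, the *Ptgs2* level with CGRP was 506 to 1092 times that of *Ptgs1* in MHCII+CD11c- cells and 541 to 3160 times in CD11c+MHCII+ cells, ratios that rest on few *Ptgs1* counts. Platelets, which are rich in COX-1, can cling to sorted cells. The summed level of 6 platelet markers went from 273 to 422 CPM in MHCII+CD11c- controls to 584 to 731 CPM with CGRP and from 55.3 to 98.6 CPM to 163 to 257 CPM in CD11c+MHCII+ cells. Most of that sum was *Pf4*, which rose in both populations together with *Ppbp*. No other tested platelet marker passed in either population. *Itga2b* averaged 4.20 CPM in MHCII+CD11c- controls and 0.877 CPM with CGRP, and 1.50 and 1.99 CPM in CD11c+MHCII+ cells. *Gp9* averaged 1.58 and 2.04 CPM in MHCII+CD11c- cells and 2.93 and 0.886 CPM in CD11c+MHCII+ cells. *Itgb3* averaged 9.10 and 11.4 CPM in MHCII+CD11c- cells and 2.81 and 6.50 CPM in CD11c+MHCII+ cells. The part of platelets in the *Ptgs1* values was not tested.

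*Hpgds*, on chromosome 6 (65117293 to 65144908, minus strand), encodes the haematopoietic synthase of prostaglandin D2. It measured 130, 104 and 82.7 CPM in MHCII+CD11c- controls and 81.4, 90.7 and 75.6 CPM with CGRP. The CD11c+MHCII+ cells had 25.6, 25.1 and 21.6 CPM in controls and 30.1, 15.3 and 17.9 CPM with CGRP. The treated and control libraries overlapped in both populations, and the log2 differences of -0.36 (95% interval -0.80 to 0.08) and -0.18 (95% interval -0.67 to 0.31) did not pass (adjusted p = 0.347 and 0.736).

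Of the prostaglandin E2 receptors, *Ptger4* was the more abundant in every library, at 1.80 to 9.13 times the *Ptger2* level per length. *Ptger4*, on chromosome 15 (5206661 to 5244187, minus strand), fell in MHCII+CD11c- cells from 57.6, 70.4 and 74.7 CPM to 50.3, 38.0 and 44.1 CPM. No CGRP library reached the lowest control. The log2 fold change was -0.62 ± 0.19 (n = 3 per group, adjusted p = 0.0456), just inside the threshold. It stayed there when MHCII+CD11c- control library 1 or CD11c+MHCII+ CGRP library 3 was left out (adjusted p = 0.0423 and 0.0396), and was outside it without any 1 of the other 10 libraries, at adjusted p-values from 0.0519 (without CD11c+MHCII+ CGRP library 2) to 0.197 (without MHCII+CD11c- CGRP library 2). In CD11c+MHCII+ cells *Ptger4* measured 73.5, 81.2 and 86.5 CPM in controls and 48.1, 49.5 and 73.3 CPM with CGRP, a log2 difference of -0.50 ± 0.18 (adjusted p = 0.0952). CGRP library 3 lay just below the lowest control, and without it the difference was -0.75 with an adjusted p of 0.0191.

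*Ptger2*, on chromosome 14 (44988195 to 45003820, plus strand), did not pass in either population. It measured 4.93, 11.7 and 12.9 CPM in MHCII+CD11c- controls and 7.90, 16.4 and 12.01 CPM with CGRP, with overlapping libraries. The log2 difference was 0.32 (95% interval -0.44 to 1.07, adjusted p = 0.677). CD11c+MHCII+ cells had 18.7, 30.5 and 21.6 CPM against 16.03, 20.0 and 19.1 CPM, again overlapping, with a log2 difference of -0.37 (95% interval -1.06 to 0.32, adjusted p = 0.587).

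In the leukotriene branch, 1 member fell in each population. Some dendritic cell markers also fell, 2 of 7 tested in MHCII+CD11c- cells (*Flt3* and *Irf4*) and 4 of 7 in CD11c+MHCII+ cells (*Flt3*, *Dpp4*, *Cd209a* and *Irf4*), where *Ccr7* rose. Of all 11927 tested genes, 464 and 548 fell. The dendritic cell marker sums went from 229 to 316 CPM to 170 to 197 CPM and from 938 to 975 CPM to 794 to 905 CPM. Between the controls *Alox5* averaged 106 CPM in MHCII+CD11c- cells, which had the lower sum, and 47.9 CPM in CD11c+MHCII+ cells. T and B cell markers summed to 44.3, 90.9 and 45.8 CPM in MHCII+CD11c- controls and 17.6, 27.3 and 31.3 CPM with CGRP, where 0 of 4 tested passed. In CD11c+MHCII+ cells their sum was 6.84 to 8.93 CPM in controls and 0.885 to 3.69 CPM with CGRP, where 1 of 4 fell. Between the controls 3 of the 4 were lower in CD11c+MHCII+ cells. The part of dendritic cells, T cells and B cells in these results was not tested. *Alox5*, on chromosome 6 (116410077 to 116461178, minus strand), measured 150, 109 and 58.7 CPM in MHCII+CD11c- controls and 60.3, 46.4 and 34.1 CPM with CGRP. The controls were spread widely and the highest CGRP library lay just above the lowest control. The log2 fold change was -1.19 ± 0.33 (n = 3 per group, adjusted p = 0.0288). The adjusted p rose above the threshold without MHCII+CD11c- control library 1 (0.179) or 2 (0.0797) and without MHCII+CD11c- CGRP library 2 (0.097) or 3 (0.134). In CD11c+MHCII+ cells *Alox5* measured 59.3, 40.5 and 44.0 CPM in controls and 53.4, 18.2 and 26.0 CPM with CGRP, a log2 difference of -0.54 (95% interval -1.25 to 0.18, adjusted p = 0.40). Library 1 of each treatment was the highest there, and without CGRP library 1 the difference was -1.12 with an adjusted p of 0.0369.

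*Alox5ap*, on chromosome 5 (149264767 to 149288153, plus strand), fell in CD11c+MHCII+ cells from 166, 140 and 144 CPM to 127, 95.1 and 91.9 CPM. All CGRP libraries were below all controls, by a log2 fold change of -0.52 ± 0.15 (n = 3 per group, adjusted p = 0.0328). The adjusted p was above the threshold without CD11c+MHCII+ control library 1 (0.134) or 3 (0.0564) and without CD11c+MHCII+ CGRP library 2 (0.141) or 3 (0.137). In MHCII+CD11c- cells it measured 127, 105 and 120 CPM in controls and 132, 115 and 141 CPM with CGRP, with overlapping libraries and a log2 difference of 0.14 (95% interval -0.18 to 0.46, adjusted p = 0.669). *Ltc4s*, on chromosome 11 (50236461 to 50238616, minus strand), did not pass in either population. It measured 13.9, 11.4 and 16.01 CPM in MHCII+CD11c- controls and 17.6, 13.3 and 5.25 CPM with CGRP, and 1.62, 2.79 and 2.56 CPM against 8.01, 3.20 and 2.48 CPM in CD11c+MHCII+ cells. The log2 differences were -0.20 (95% interval -1.18 to 0.79) and 0.93 (95% interval -0.20 to 2.06), and the second rested largely on CGRP library 1.

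**Figure D2:**
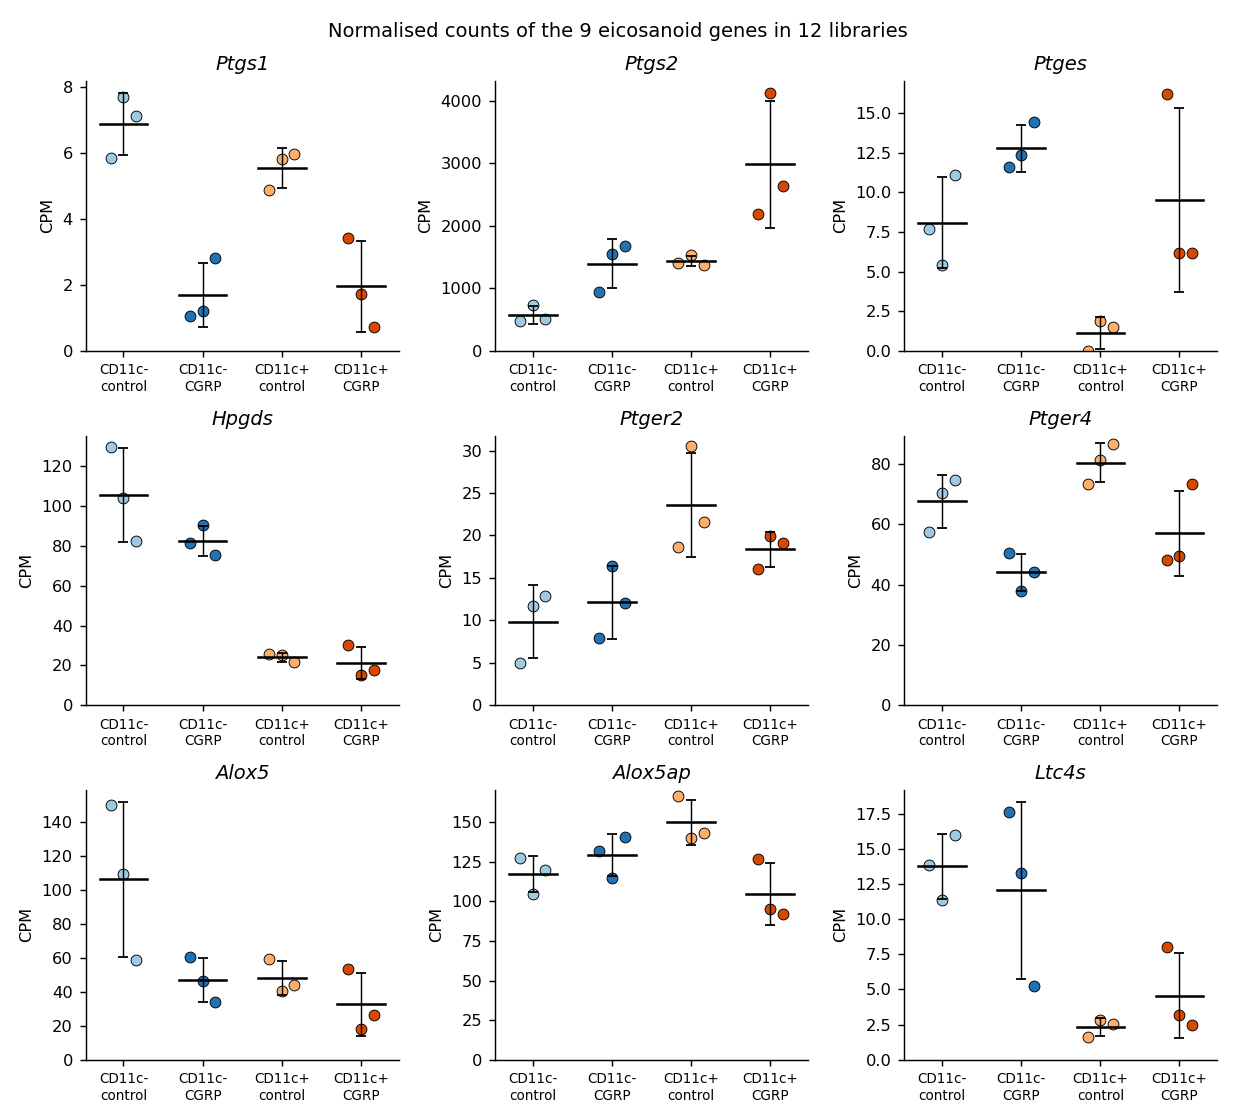
Normalised counts (CPM) of each of the 9 genes in the 12 libraries, by sorted population (CD11c- is MHCII+CD11c-, CD11c+ is CD11c+MHCII+) and treatment; points are libraries, horizontal lines means and bars SD (n = 3). *Ptgs2* is higher with CGRP in both populations, *Ptges* goes from 0 to 1.86 CPM to 6.16 to 16.2 CPM in CD11c+ cells, and *Hpgds* and *Ltc4s* separate the control populations.

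CD11c+MHCII+ CGRP library 1 was the highest of its group for *Ptges*, *Ltc4s*, *Alox5*, *Alox5ap*, *Hpgds* and *Ptgs1*. It also had the highest mural marker sum of all libraries (364 CPM) and mast cell markers at 151 CPM, against 80.3 and 92.1 CPM in the other libraries of its group. Its macrophage marker sum was the highest of the group as well, at 2908 CPM against 2037 and 1988 CPM. Mast cells are known for *Hpgds*, *Ltc4s* and *Alox5* expression. The highest mast cell sum of all libraries, 211 CPM, was in CD11c+MHCII+ control library 1. That library was the highest of its group for *Hpgds* (25.6 CPM) and *Alox5* (59.3 CPM) and the lowest for *Ltc4s* (1.62 CPM). In MHCII+CD11c- controls the mast cell sum was 33.3, 59.6 and 109 CPM, and *Hpgds* measured 130, 104 and 82.7 CPM. The part of mast cells in these values was not tested.

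**Figure D3:**
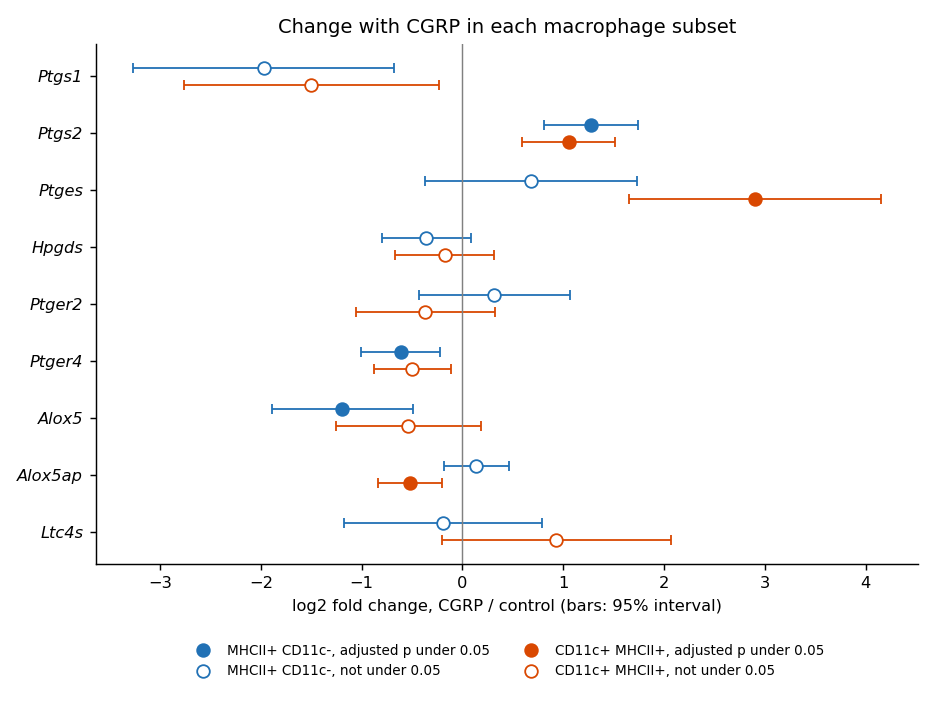
Log2 fold change with CGRP over control for the 9 genes in both sorted populations; bars are 95% intervals from the edgeR fit and filled points passed an adjusted p of 0.05. *Ptgs2* lies to the right of 0 in both populations, with *Ptges* at 2.91 in CD11c+MHCII+ cells.

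No member passed the test of whether its CGRP effect differed between the populations, a test that 0.151% of all tested genes passed. The lowest unadjusted p-values among the members were those of *Ptges* (log2 difference of the effects 2.22 ± 0.78, unadjusted p = 0.0103, adjusted p = 0.367) and *Alox5ap* (-0.65 ± 0.22, unadjusted p = 0.00686, adjusted p = 0.325). By that p *Ptges* ranked 334 and *Alox5ap* 251 among the 11927 tested genes. DESeq2 and limma-voom also passed 0 members. So the passing of *Ptges* in one population and not in the other is not shown to be a difference between them. For *Ptgs2* the difference of the effects was -0.22, with a 95% interval from -0.87 to 0.43.

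The populations were also compared with each other within each treatment. Without CGRP, 6 of 9 passed, *Ptgs2* and *Ptger2* higher and *Ptges*, *Hpgds*, *Alox5* and *Ltc4s* lower in CD11c+MHCII+ cells, where 21.2% of all tested genes passed. With CGRP 2 of 9 passed, *Ptgs2* higher and *Hpgds* lower, against 16.9% of all tested genes. The median log2 difference over the members was -0.30 in both comparisons, and over all tested genes -0.02 and 0.0022. These comparisons use the same libraries as those above, so the values of a gene in the 4 comparisons are not independent.

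*Ptgs2* was higher in CD11c+MHCII+ cells by 1.32 ± 0.22 on the log2 scale in controls (2.50-fold, adjusted p = 2.49e-04) and by 1.10 ± 0.22 with CGRP (2.15-fold, adjusted p = 0.00135). In both treatments all CD11c+MHCII+ libraries lay above all MHCII+CD11c- libraries, and both calls held in all 12 fits that left out a library. *Hpgds* showed the opposite order. It was lower in CD11c+MHCII+ cells by a log2 difference of -2.14 ± 0.23 in controls (adjusted p = 1.90e-06, 4.41-fold lower) and -1.96 ± 0.23 with CGRP (adjusted p = 4.36e-06, 3.89-fold lower), with no overlap and in all leave-one-out fits.

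*Ltc4s* was 5.68-fold lower in CD11c+MHCII+ controls (log2 difference -2.51 ± 0.53, adjusted p = 0.00213), resting on 4 to 12 counts there against 36 to 45 counts in MHCII+CD11c- controls. With CGRP the difference was -1.38 ± 0.49 (adjusted p = 0.0592), and the libraries overlapped because CD11c+MHCII+ library 1 had 42 counts and MHCII+CD11c- library 3 had 28. It passed without MHCII+CD11c- CGRP library 3 (adjusted p = 0.0157) or CD11c+MHCII+ CGRP library 1 (0.0126). *Alox5*, which acts 1 step before *Ltc4s*, was lower in CD11c+MHCII+ controls by -1.17 ± 0.34 (adjusted p = 0.0174). Its libraries overlapped at 58.7 and 59.3 CPM, and the adjusted p was 0.121 without MHCII+CD11c- control library 1, 0.0919 without CD11c+MHCII+ control library 2 and 0.0771 without CD11c+MHCII+ control library 3. With CGRP the *Alox5* difference was -0.51 (95% interval -1.22 to 0.20, adjusted p = 0.367), or -1.06 (adjusted p = 0.0333) without CD11c+MHCII+ CGRP library 1.

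*Ptges* was lower in CD11c+MHCII+ controls by -2.65 ± 0.61 (adjusted p = 0.00397), with no overlap between 0 to 1.86 CPM and 5.41 to 11.1 CPM. With CGRP the difference was -0.42 (95% interval -1.43 to 0.59, adjusted p = 0.642), and the libraries overlapped. Fibroblast markers also differed between the controls, with 5 of the 6 tested lower in CD11c+MHCII+ cells. Their sums were 24.4 to 35.5 CPM there against 168 to 1374 CPM in MHCII+CD11c- controls. In MHCII+CD11c- control library 2, which had the highest sum, *Ptges* was the lowest of its group (5.41 CPM). The part of fibroblasts was not tested. *Ptger2* was higher in CD11c+MHCII+ controls by 1.28 ± 0.35 (2.43-fold, adjusted p = 0.0134), without overlap. That adjusted p was 0.0663 without MHCII+CD11c- control library 1 and 0.0594 without CD11c+MHCII+ control library 2. With CGRP the *Ptger2* difference was 0.59 (95% interval -0.11 to 1.30, adjusted p = 0.275).

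The remaining members did not pass between the populations. For *Ptger4* the log2 difference was 0.25 (95% interval -0.13 to 0.64) in controls and 0.37 (95% interval -0.02 to 0.76) with CGRP. For *Alox5ap* it was 0.35 (95% interval 0.03 to 0.67, adjusted p = 0.119) in controls, where the libraries did not overlap, and -0.30 (95% interval -0.62 to 0.01, adjusted p = 0.202) with CGRP. For *Ptgs1* it was -0.30 (95% interval -1.51 to 0.90) and 0.17 (95% interval -1.16 to 1.50). Macrophage markers moved with these comparisons as a whole, with 9 of 9 lower in CD11c+MHCII+ controls and 8 of 9 with CGRP, and 5 and 4 of 7 tested dendritic cell markers (9 listed) higher. Mast cell markers summed to 33.3 to 109 CPM in MHCII+CD11c- controls and 21.0 to 211 CPM in CD11c+MHCII+ controls. The part of these cells in the differences was not tested.

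**Figure D4:**
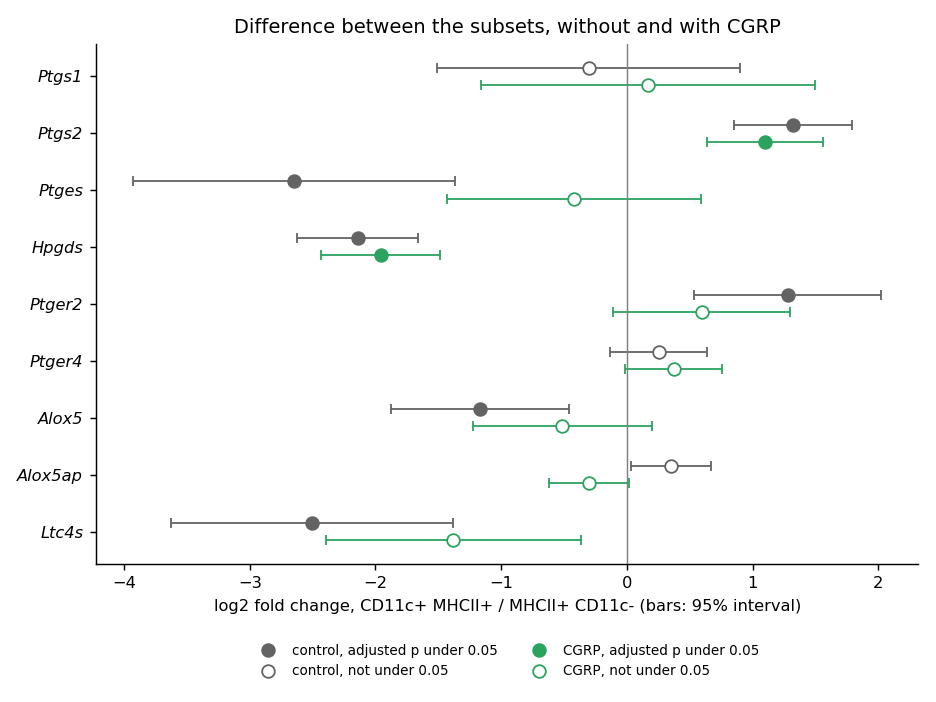
Log2 difference between CD11c+MHCII+ and MHCII+CD11c- cells for the 9 genes, in controls and with CGRP; bars are 95% intervals from the edgeR fit and filled points passed an adjusted p of 0.05. *Hpgds* lies near -2 and *Ptgs2* above 1 in both treatments, while *Ptges*, *Ltc4s*, *Alox5* and *Ptger2* passed only in controls, a difference between treatments that itself passed for none of them.

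Beyond the 9 genes, 57 others of the eicosanoid pathway that were in the count files were grouped by role, and 34 of them were tested. With CGRP 6 passed in MHCII+CD11c- cells (4 higher, 2 lower) and 9 in CD11c+MHCII+ cells (4 higher, 5 lower), where 9.21% and 10.9% of all tested genes passed. The median log2 fold change of the 34 was -0.15 and -0.27, against -0.02 and 0.0016 over all tested genes. *Pla2g4a* encodes cytosolic phospholipase A2, which supplies arachidonic acid to both branches. It went from 35.7, 27.9 and 23.1 CPM to 68.5, 112 and 103 CPM in MHCII+CD11c- cells (log2 fold change 1.69 ± 0.28, adjusted p = 5.95e-04). It also rose in CD11c+MHCII+ cells, from 21.9, 39.8 and 26.1 CPM to 62.6, 140 and 93.5 CPM (1.74 ± 0.28, adjusted p = 2.74e-04). All CGRP libraries were above all controls in both populations. It was the only one of the 10 tested genes for arachidonate release to rise in either, while *Daglb*, a diacylglycerol lipase, fell in CD11c+MHCII+ cells (-0.98 ± 0.25, adjusted p = 0.0124).

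Of the 7 genes for prostaglandin transport and breakdown, 3 rose in MHCII+CD11c- cells and 2 in CD11c+MHCII+ cells, and none fell. Over all 11927 tested genes, 635 and 750 rose, and the group of 7 holds both exporters and enzymes of breakdown. *Ptgr1*, a reductase that inactivates oxidised prostaglandins and leukotriene B4, rose from 25.2, 26.2 and 26.2 CPM to 56.6, 96.3 and 67.7 CPM in MHCII+CD11c- cells (1.50 ± 0.26, adjusted p = 8.90e-04). It also rose in CD11c+MHCII+ cells, from 14.2, 20.7 and 26.7 CPM to 52.7, 92.9 and 102 CPM (1.98 ± 0.26, adjusted p = 4.20e-05). *Abcc1*, which exports leukotriene C4 among other conjugates, rose by 0.98 ± 0.14 (adjusted p = 1.13e-04) and 0.84 ± 0.14 (adjusted p = 2.93e-04). *Abcc4*, a prostaglandin exporter, rose in MHCII+CD11c- cells by 1.28 ± 0.28 (adjusted p = 0.00567).

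No terminal prostanoid synthase among the 6 tested rose, and 1, the thromboxane A synthase gene *Tbxas1*, named here after its values were seen, fell in CD11c+MHCII+ cells (-0.51 ± 0.15, adjusted p = 0.0302). In the leukotriene branch, *Cotl1*, whose product binds 5-lipoxygenase as well as actin, fell in both populations, from 238, 231 and 167 CPM to 148, 104 and 113 CPM (-0.81 ± 0.18, adjusted p = 0.00554) and from 424, 358 and 374 CPM to 184, 129 and 196 CPM (-1.18 ± 0.18, adjusted p = 1.25e-04). *Cyp4f18*, a leukotriene B4 hydroxylase, fell in CD11c+MHCII+ cells by -1.13 ± 0.35 (adjusted p = 0.0435). The epoxide hydrolase *Ephx1* fell in both (-0.68 ± 0.20, adjusted p = 0.0384, and -0.93 ± 0.20, adjusted p = 0.00437). The cysteinyl leukotriene receptor gene *Cysltr1* rose in CD11c+MHCII+ cells from 11.8, 19.1 and 19.0 CPM to 41.8, 20.7 and 41.3 CPM (1.04 ± 0.29, adjusted p = 0.0257).

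Between the populations, 9 of the 34 passed in controls (5 higher and 4 lower in CD11c+MHCII+ cells) and 8 with CGRP (4 higher, 4 lower), where 21.2% and 16.9% of all tested genes passed, so these counts lie near the background. The only tested member of the other prostanoid receptors was higher in both treatments, as were 1 of 3 leukotriene and lipoxin receptors in controls and 2 of 3 with CGRP. The leukotriene B4 receptor gene *Ltb4r1* measured 28.4, 30.5 and 24.1 CPM in CD11c+MHCII+ controls and 2.46, 3.99 and 2.67 CPM in MHCII+CD11c- controls (log2 difference 3.15 ± 0.45, adjusted p = 4.72e-05). With CGRP its difference was 2.41 ± 0.43 (adjusted p = 4.88e-04). The prostacyclin receptor gene *Ptgir* was higher by 1.09 ± 0.23 in controls (adjusted p = 0.00208) and by 1.35 ± 0.23 with CGRP (adjusted p = 3.11e-04), and *Cysltr1* by 1.55 ± 0.30 with CGRP (adjusted p = 9.43e-04). *Abcc1* was higher by 0.80 ± 0.14 and 0.66 ± 0.14 (adjusted p = 2.87e-04 and 0.00161), and *Cotl1* in controls by 0.86 ± 0.18 (adjusted p = 0.0015).

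Among the genes lower in CD11c+MHCII+ controls were *Hpgd*, which encodes the dehydrogenase that inactivates prostaglandin E2 (40.0, 49.9 and 25.4 CPM in MHCII+CD11c- controls, 16.2, 2.33 and 14.7 CPM in CD11c+MHCII+ controls, -1.84 ± 0.43, adjusted p = 0.00429), the lysosomal phospholipase gene *Pla2g15* (-1.38 ± 0.24, adjusted p = 2.95e-04) and the fatty acid desaturase gene *Fads1* (-1.43 ± 0.39, adjusted p = 0.0117). *Pla2g15* was also lower with CGRP (-1.33 ± 0.23, adjusted p = 3.70e-04), as was *Akr1b3*, an aldo-keto reductase with prostaglandin F synthase activity (-0.68 ± 0.22, adjusted p = 0.041). The lipoxygenase gene *Aloxe3* (both treatments) and *Ggt5* (with CGRP), also named after their values were seen, were lower at under 5 CPM on average. None of the 34 passed the test for a CGRP effect that differed between the populations.

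**Figure D5:**
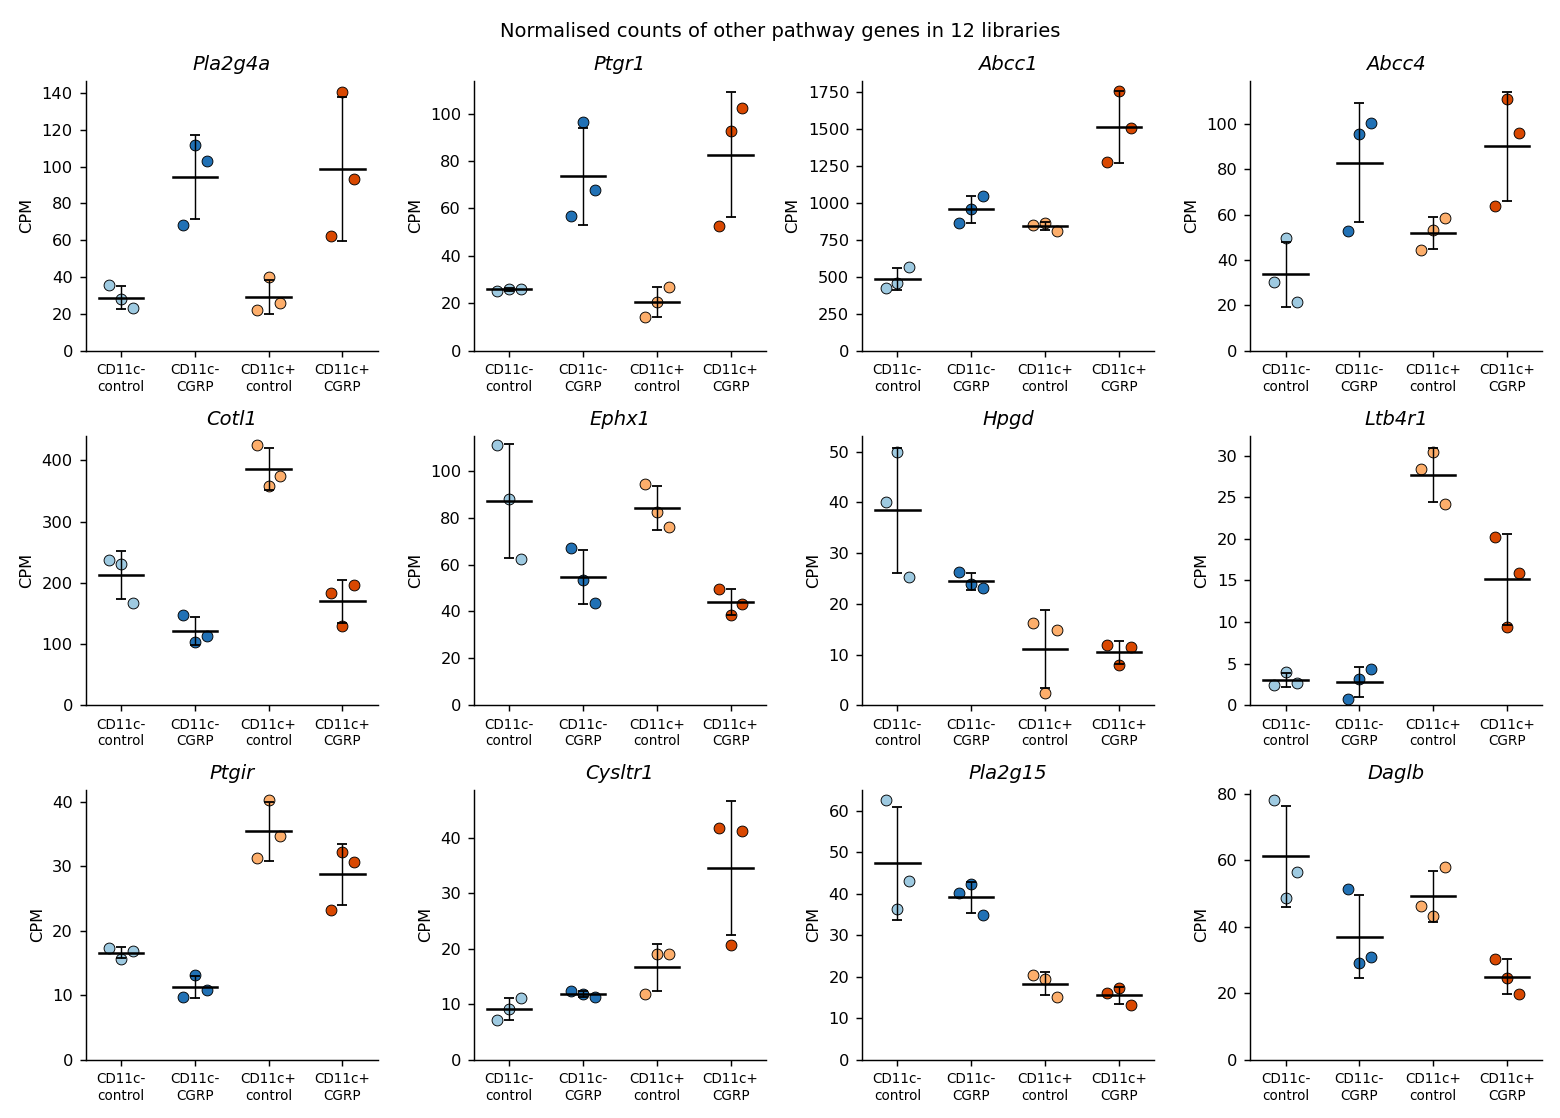
Normalised counts (CPM) of 12 other genes of the eicosanoid pathway in the 12 libraries, by sorted population and treatment; points are libraries, horizontal lines means and bars SD (n = 3). *Pla2g4a*, *Ptgr1* and *Abcc1* are higher with CGRP in both populations, and *Ltb4r1* and *Ptgir* are higher in CD11c+ than in CD11c- cells.

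The genes whose level over the 12 libraries followed each member most closely (Pearson's r of log2 (CPM + 1), among 8426 genes of at least 5 CPM on average, predicted genes left out) are given as a description, since all libraries share the 4 groups. *Ptgs2* went with *Slc7a11* (r = 0.97), *Mvp* (0.97) and *Riok3* (0.96), and *Ptges* with *Maged1* (0.97), *Milr1* (0.94) and *Tgtp2* (0.93). *Hpgds* went with *Apoe*, *Pmp22* and *C1qb* (0.99 each), and *Ltc4s* with *Kctd6* (0.96), *Rcn2* (0.94) and *Dnm1* (0.94). For *Ptger2* they were *Dapk1* (0.93), *Tiprl* (0.93) and *Snx20* (0.91), and for *Ptger4* *Nadk* (0.94), *Galnt10* (0.93) and *Asap1* (0.91). *Alox5* went with *Rab3il1* (0.94), *Irf2bp2* (0.93) and *Ntpcr* (0.92), and *Alox5ap*, with the loosest of these, with *Hadh* (0.86), *Nol10* (0.84) and *Pdlim2* (0.84). *Ptgs1* was under 5 CPM on average.

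Several members share exonic bases with a gene on the opposite strand in the annotation (GENCODE M21), 26.4% of *Ltc4s* (*Gm26542*), 16.5% of *Ptger4* (*Gm15937* and *Ttc33*), 13.3% of *Alox5ap* (*Gm19719*), 4.7% of *Ptger2* and 3.8% of *Ptgs1*. The library kit keeps strand, but whether strand was used in counting is not given in the sources used here, so reads of these partners cannot be told apart. Over all 12 libraries *Ttc33* had 326 counts of its own, *Gm19719* 77 and *Gm26542* 32. *Ptgs2*, *Ptges*, *Alox5* and *Hpgds* share no exonic base with another gene.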

How the data were processed

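Bulk RNA-seq had been made from 12 sorted synovial macrophage samples, with 5 ng RNA per library (SMARTer stranded total RNA kit, paired reads). The authors trimmed reads with Trim Galore, checked them with FastQC, used HISAT2 for alignment to mm10, and obtained gene-level counts from featureCounts; versions and strand setting are not given in the sources used here. The deposited values are whole counts per gene, 1 file per library. A combined table repeated these 12 columns, and its 6 other columns were not used. Counts were fitted with edgeR 4.0.16 (R 4.3.3): genes with enough counts by filterByExpr (minimum count 10, minimum total 15), TMM scaling, 1 mean per group over all 12 libraries, quasi-likelihood test, Benjamini-Hochberg adjustment, threshold 0.05. Intervals are 95% intervals of the fit. The fit was tested on simulated data. The members, gene lists and tests were chosen with earlier results of these data known. All 9 members are named; other pathway genes are named if they passed, up to 4 per direction and comparison with the largest change and a mean of at least 5 CPM. Sequences are from RefSeq (GRCm38.p6), gene positions from GENCODE M21. DESeq2 1.42.0, limma 3.58.1 and sva 3.50.0 served for alternatives, with other scalings, no filter, thinned counts, only the compared libraries, and leaving out each library. The 3-count floor covers counting error only.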

Additional observations from a re-analysis of the deposited data

How the results depend on the processing

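*Ptgs2* and *Hpgds* kept their calls under every alternative tried, as did *Ptges* with CGRP in CD11c+MHCII+ cells and *Ptges* and *Ltc4s* between control populations. In MHCII+CD11c- cells 3 members passed with CGRP, 1 under limma-voom and 1 to 4 when a library was left out (1 without control library 2 or CGRP library 2 of that population). Leaving out a library gave 2 to 4 in CD11c+MHCII+ cells, 4 to 6 between control populations, 2 to 4 between populations with CGRP (4 without CD11c+MHCII+ CGRP library 1) and 0 for the difference of effects; the causes were not tested. Without a filter, *Ptger4* in MHCII+CD11c- cells had an adjusted p of 0.0986, and under limma-voom 0.0664. *Alox5* had 0.0647 there under DESeq2, and 0.0569 between control populations. *Ptgs1* in CD11c+MHCII+ cells passed under limma-voom (0.0373). Whether the replicate numbers pair libraries was not settled. Same-numbered libraries of the 2 populations with CGRP deviated together with r of 0.29, 0.095 and 0.13 (log2 (CPM + 1), 7152 genes of at least 10 CPM), so 1 pair missed the minimum of 0.1 set for pairing; on edgeR's log CPM over 7618 genes, a scale tried second, r was 0.23, 0.13 and 0.14. On both scales all 6 of these libraries correlated best with their own number, a hint from the data and not from the design. The control libraries of the 2 populations gave 0.0016 to 0.043 and 0.041 to 0.079. With the replicate block 3, 3, 6, 3 and 0 members passed; the only call it changed was *Ltc4s* between populations with CGRP (-1.40, adjusted p = 0.048, and 0.0243 with a block for each treatment and number). Signs turned only for differences that had not passed: without 1 library, *Ptgs1* between populations with CGRP ranged from -0.54 to 0.77 (log2, also -0.06 and -0.02), the differences of effects of *Ptgs1* from -0.29 to 1.07, of *Ptger4* from -0.16 to 0.22 and of *Hpgds* from -0.22 to 0.35, and in MHCII+CD11c- cells with CGRP *Ptger2* from -0.0072 to 0.56 and *Ltc4s* from -0.56 to 0.18. Over all genes, 18 passed the difference of effects, 36 with the replicate block, 52 with the block by treatment, 38 with 1 surrogate variable, 97 under DESeq2, 171 without a filter, 2 under limma-voom and 6 to 29 without 1 library, and 722 instead of 1099 passed with CGRP in MHCII+CD11c- cells without CGRP library 2. Few counts limit *Ptgs1*, *Ptges* and *Ltc4s*.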
